A study of Rattus norvegicus with 22 samples.

Results

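Base excision repair removes small damaged bases from DNA. This account follows 10 genes of that pathway and of the poly(ADP-ribose) polymerase family in pachytene spermatocytes and round spermatids of the rat. The genes were found by matching the accession of each array probe to the rat symbols Ung, Mpg, Ogg1, Neil1, Apex1, Polb, Xrcc1, Lig3, Parp1 and Parp2. Of the 10 genes, 9 had a probe, each a single one, among 15154 named genes on the array, and Lig3 was not analysed here. Of the 9, 8 were measured well above background and tested, while Neil1 was not well above background on any of 22 arrays.

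The alkylating agent cyclophosphamide, used against cancers, was given to male rats by gavage at 6 mg/kg, on 6 days of each week over 4 weeks, and control rats were gavaged with saline. From their testes, germ cells were parted by size with sedimentation at unit gravity, and total RNA of each cell preparation was hybridised to an Agilent one-colour array. The groups were round spermatids of cyclophosphamide rats (n = 6), round spermatids of saline rats (n = 6), pachytene spermatocytes of cyclophosphamide rats (n = 5) and pachytene spermatocytes of saline rats (n = 5). Strain and age are not given in the sources used here, and fractions made by sedimentation are enriched, not pure.

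In this pathway a DNA glycosylase recognises a damaged or wrong base and cuts it from the sugar. An endonuclease then opens the strand at the bare site, a polymerase fills the gap, and a ligase held by a scaffold protein seals it. Poly(ADP-ribose) polymerases sense the open strand and build chains that recruit the scaffold. Pachytene spermatocytes are cells in meiotic prophase, which make and repair programmed DNA breaks. Round spermatids are the haploid cells that follow meiosis and precede the compaction of chromatin by protamines.

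The promoters of the gene with the largest fall between the cell types (Parp2), of the gene with the largest rise in saline rats (Apex1) and of the gene with the largest difference after cyclophosphamide (Ung) are shown so that the regulatory sequence can be read beside the values below. Each runs 5′ to 3′ from 250 bases before to 50 bases after a RefSeq transcription start in assembly GRCr8. The Parp2 and Ung windows lie wholly inside the annotated gene spans (chr15:26494722-26517893 and chr12:48145838-48154789). The starts used for these genes are thus not the outermost ends of their spans. The windows are chr15:26507409-26507708 (plus strand) for Parp2, chr15:26617976-26618275 (plus strand) for Apex1 and chr12:48153996-48154295 (minus strand) for Ung. Capitals mark the motifs searched on both strands: the E-box CACGTG, the CCAAT box, the GC box GGGCGG, the cAMP response element TGACGTCA and the octamer ATTTGCAT.

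Parp2: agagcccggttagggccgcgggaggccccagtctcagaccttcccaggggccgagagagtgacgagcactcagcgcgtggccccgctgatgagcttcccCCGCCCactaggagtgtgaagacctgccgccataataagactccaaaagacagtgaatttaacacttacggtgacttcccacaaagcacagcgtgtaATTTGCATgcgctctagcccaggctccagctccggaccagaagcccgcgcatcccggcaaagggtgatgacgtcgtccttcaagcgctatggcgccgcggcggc

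Apex1: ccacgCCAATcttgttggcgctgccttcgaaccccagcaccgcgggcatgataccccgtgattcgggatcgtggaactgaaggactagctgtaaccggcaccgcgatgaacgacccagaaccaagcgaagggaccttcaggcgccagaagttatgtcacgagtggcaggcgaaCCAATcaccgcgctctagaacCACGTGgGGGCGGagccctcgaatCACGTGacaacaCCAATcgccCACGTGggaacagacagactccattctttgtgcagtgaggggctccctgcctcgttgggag

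Ung: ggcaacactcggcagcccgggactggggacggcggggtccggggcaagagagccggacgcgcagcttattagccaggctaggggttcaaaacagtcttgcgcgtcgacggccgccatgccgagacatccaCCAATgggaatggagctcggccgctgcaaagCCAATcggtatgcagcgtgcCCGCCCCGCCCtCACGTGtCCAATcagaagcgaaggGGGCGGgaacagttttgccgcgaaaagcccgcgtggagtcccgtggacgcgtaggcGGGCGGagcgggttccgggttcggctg

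Promoters were listed for 9 members, and Polb was not among them. The Apex1 window held 3 E-boxes, 3 CCAAT boxes and 1 GC box. The Ung window held 1 E-box, 3 CCAAT boxes and 4 GC boxes, a pair of which overlap, and the Parp2 window held 1 octamer and 1 GC box. Of all 33469 promoters of this length, 6.42% held an E-box, 37.5% a CCAAT box, 33.1% a GC box, 1.83% the cAMP response element and 1.78% the octamer. None of the 9 windows held the cAMP response element TGACGTCA. Among the members the octamer was found in the Parp2 window alone, and E-boxes in those of Apex1, Ung and Lig3. The upstream end of the Parp2 window overlapped the annotated gene Rpph1 (chr15:26507232-26507488), a non-coding RNA gene inside the annotated span of Parp2. Parp2 (chr15:26494722-26517893) and Apex1 (chr15:26618146-26620330) lie on the same chromosome, with 100252 bases between the end of Parp2 and the start of Apex1. Such matches describe letters and do not show that a factor binds.

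Levels are given as log2 of the processed signal relative to the 75th percentile of all probes on the same array, so that 0 is the level of that percentile. They can be compared between arrays for 1 gene but not between genes, whose probes differ. The 75th percentile lay between 1070 and 2425 intensity units, between 65.3% and 76.4% of all probes exceeded background clearly, and arrays of 1 group correlated at 0.981 to 0.991. The labelled cell types were checked on marker lists. All 12 round spermatid markers were higher in round spermatids in both treatments, and of 10 pachytene markers 9 were lower there in cyclophosphamide rats and 8 in saline rats. In each treatment 1 pachytene marker passed as higher there (log2 difference 1.38 in cyclophosphamide rats and 1.33 in saline rats). In multiples of the percentile signal, summed round spermatid markers were 619 to 1036 in round spermatids of cyclophosphamide rats, against 155 to 325 in pachytene spermatocytes. In saline rats they were 603 to 967, against 166 to 420. Summed pachytene markers were 53.6 to 64.3 in round spermatids of cyclophosphamide rats, against 96.9 to 121 in pachytene spermatocytes. In saline rats these were 53.5 to 69.8, against 88.1 to 115. Among pachytene arrays, saline rat 26 and cyclophosphamide rat 16-2012, on the same slide, stood apart from the rest together. Their deviations from the mean of pachytene arrays correlated at 0.535 across genes, the next highest pair being at 0.30, and they had the lowest summed round spermatid markers, 166 and 155 times the percentile signal. On both, Mpg, Ogg1, Parp1 and Parp2 were the highest and Ung the lowest of their group. The other array of their slide, saline rat 16, correlated in its deviations at -0.506 with rat 26 and -0.356 with rat 16-2012. Cyclophosphamide rat 16-2011 came next in summed round spermatid markers, at 175.

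The first comparison asked how the pathway differs between the 2 cell types. Parp1, Parp2, Mpg and Ogg1 were lower in round spermatids than in pachytene spermatocytes, and Apex1, Polb and Xrcc1 were higher, in both treatments. In cyclophosphamide rats 7 of 8 tested members passed (3 higher, 4 lower), and in saline rats all 8 passed (3 higher, 5 lower), in limma at an adjusted p of 0.05. Of all tested genes 79.2% passed in cyclophosphamide rats (38.8% higher, 40.4% lower) and 75.2% in saline rats (38.3% higher, 37.0% lower), so that passing itself is not particular to these genes. The median member differed by -0.48 in cyclophosphamide rats and -0.67 in saline rats on the log2 scale. Fewer cells of a type and less RNA per cell cannot be told apart in such bulk RNA.

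**Figure D1:**
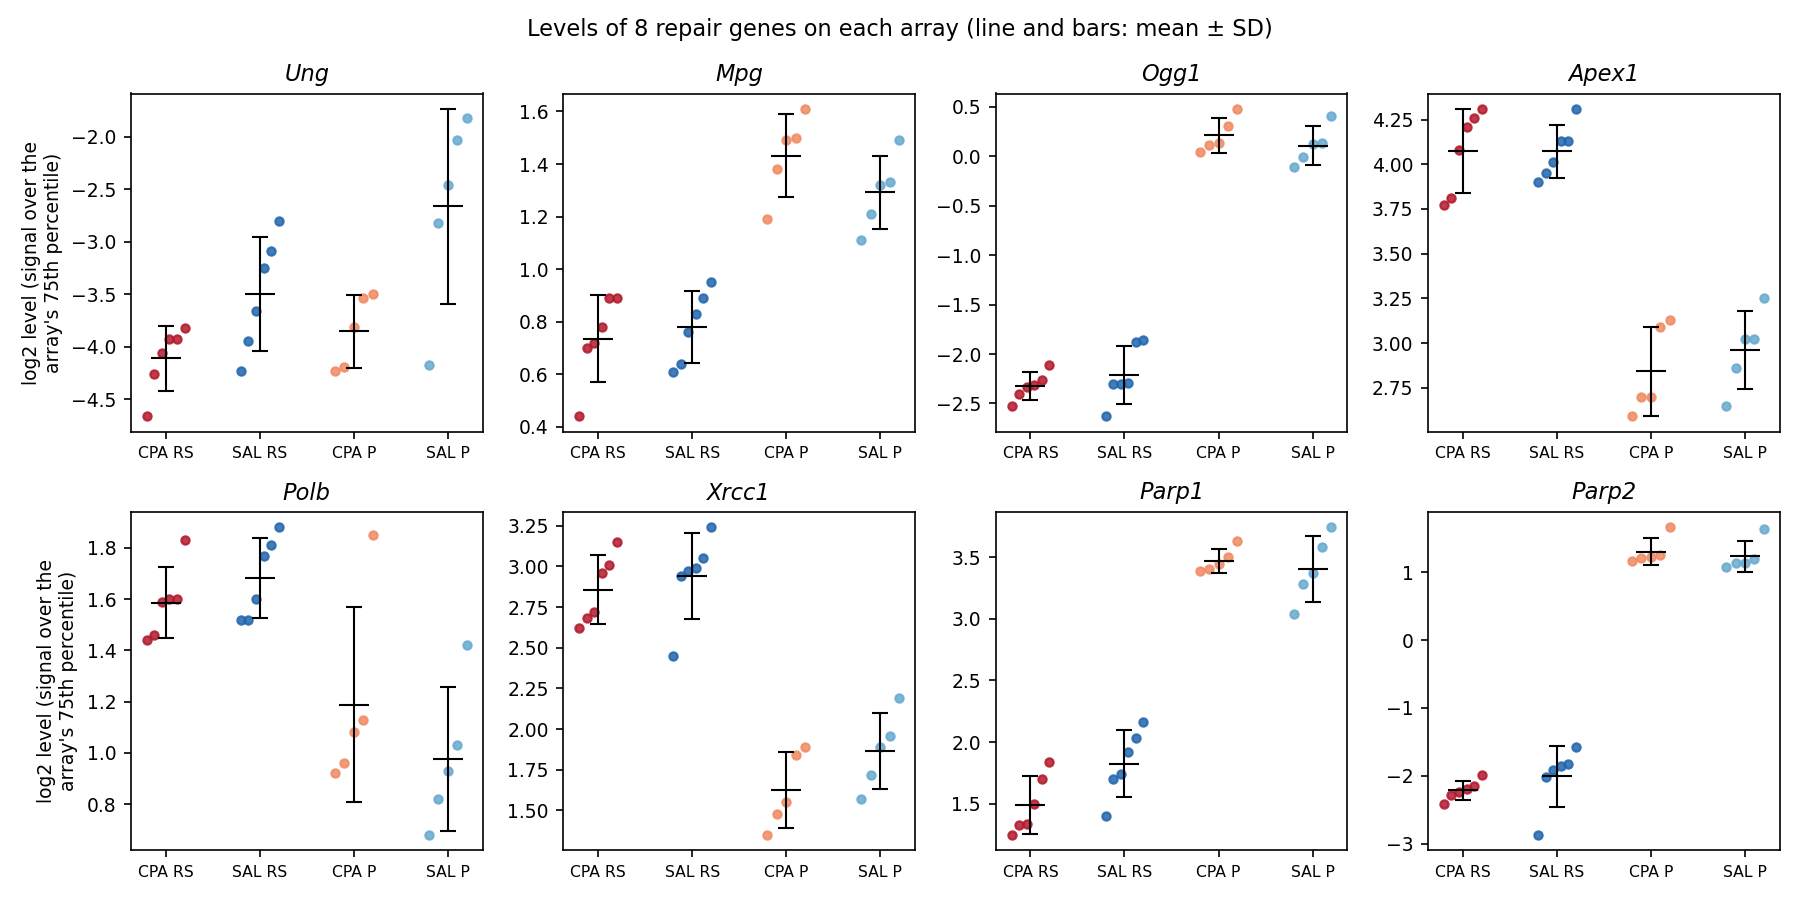
Log2 level of 8 genes on each array (vertical axis, a scale of its own for each gene) in round spermatids (RS) and pachytene spermatocytes (P) of cyclophosphamide (CPA) and saline (SAL) rats. Points are arrays, and lines with bars are the mean ± SD of 6 (RS) or 5 (P) arrays; Parp2 and Ogg1 form separate bands by cell type, and Ung scatters most in saline pachytene spermatocytes.

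Parp2, a polymerase activated by DNA breaks whose loss impairs male fertility in mice, had the largest difference. In round spermatids of cyclophosphamide rats its level had a lowest value of -2.41, a median of -2.22 and a highest value of -1.99, and in pachytene spermatocytes it was 1.21, 1.17, 1.26, 1.66 and 1.22 on rats 7, 15, 16-2011, 16-2012 and 29. In round spermatids of saline rats the lowest, median and highest values were -2.87, -1.89 and -1.58, against 1.14, 1.19, 1.13, 1.63 and 1.07 in pachytene spermatocytes of rats 13, 16, 25, 26 and 28, and values of other genes are given in the same order of rats. Every round spermatid array lay below every pachytene array in both treatments. The level was 11.4-fold lower in round spermatids of cyclophosphamide rats (95% interval 8.97 to 14.6; log2 difference -3.52 ± 0.17 SE, limma adjusted p = 5.2e-14). In saline rats it was 9.46-fold lower (7.42 to 12.1; -3.24 ± 0.17, limma adjusted p = 4.1e-13). Of all tested genes, 1.55% in cyclophosphamide rats and 0.995% in saline rats had a larger absolute difference.

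Parp1, the main poly(ADP-ribose) polymerase of the cell, was also lower. Its levels in round spermatids of cyclophosphamide rats ran from a lowest value of 1.25 over a median of 1.42 to a highest of 1.84, against 3.50, 3.39, 3.44, 3.63 and 3.40 in pachytene spermatocytes. In saline rats the lowest, median and highest were 1.40, 1.83 and 2.16 in round spermatids, against 3.58, 3.04, 3.28, 3.74 and 3.37 in pachytene spermatocytes. The cell types did not overlap in either treatment. Parp1 was 3.94-fold lower in round spermatids of cyclophosphamide rats (3.21 to 4.84; -1.98 ± 0.14, limma adjusted p = 2.0e-11) and 2.98-fold lower in those of saline rats (2.43 to 3.66; -1.58 ± 0.14, limma adjusted p = 1.3e-09).

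Ogg1, the glycosylase that removes oxidised guanine, followed the same direction. In round spermatids of cyclophosphamide rats its lowest, median and highest levels were -2.53, -2.32 and -2.11, against 0.31, 0.11, 0.13, 0.48 and 0.04 in pachytene spermatocytes. In saline rats they were -2.63, -2.29 and -1.86 in round spermatids, against 0.13, -0.01, -0.11, 0.41 and 0.12 in pachytene spermatocytes. The gap between the cell types was wider than the spread within any of the 4 groups. The fold was 5.80 lower in round spermatids of cyclophosphamide rats (4.78 to 7.02; -2.53 ± 0.13, limma adjusted p = 1.8e-13) and 4.98 lower in those of saline rats (4.11 to 6.04; -2.32 ± 0.13, limma adjusted p = 1.7e-12).

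Mpg, the glycosylase that removes alkylated purines, differed less. Its lowest, median and highest levels were 0.44, 0.75 and 0.89 in round spermatids of cyclophosphamide rats, against 1.38, 1.49, 1.19, 1.61 and 1.50 in pachytene spermatocytes. They were 0.61, 0.79 and 0.95 in round spermatids of saline rats, against 1.33, 1.11, 1.21, 1.49 and 1.32 in pachytene spermatocytes. All round spermatid arrays lay below all pachytene arrays of the same treatment, by a narrow margin. Mpg was 1.62-fold lower in round spermatids of cyclophosphamide rats (1.39 to 1.89, limma adjusted p = 2.7e-06) and 1.43-fold lower in those of saline rats (1.23 to 1.66, limma adjusted p = 1.4e-04).

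Ung, the glycosylase that removes uracil, was the least even of the members. Its lowest, median and highest levels were -4.66, -3.99 and -3.82 in round spermatids of cyclophosphamide rats, against -4.19, -3.53, -3.81, -4.23 and -3.50 in pachytene spermatocytes. They were -4.23, -3.46 and -2.80 in round spermatids of saline rats, against -2.82, -2.46, -2.03, -4.17 and -1.82 in pachytene spermatocytes. The cell types overlapped in both treatments. Ung did not pass in cyclophosphamide rats (-0.26 ± 0.32, limma adjusted p = 0.469) and was 1.78-fold lower in round spermatids of saline rats (1.12 to 2.83; -0.83 ± 0.32, limma adjusted p = 0.0234). Without saline pachytene rat 26, whose level was the lowest of its group, the difference in saline rats was -1.21 (limma adjusted p = 2.4e-04), and 4 other left-out arrays each ended the call, as given in the closing section.

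Apex1, the endonuclease that cuts at bare sites, had the largest rise among the members in saline rats, and in cyclophosphamide rats its rise and that of Xrcc1 were both 1.23 on the log2 scale. Its lowest, median and highest levels were 3.77, 4.14 and 4.31 in round spermatids of cyclophosphamide rats, against 2.59, 3.13, 2.70, 2.70 and 3.09 in pachytene spermatocytes. In round spermatids of saline rats they were 3.90, 4.07 and 4.31, against 3.02, 3.25, 3.02, 2.65 and 2.86 in pachytene spermatocytes. The cell types did not overlap. Apex1 was 2.35-fold higher in round spermatids of cyclophosphamide rats (1.94 to 2.85; 1.23 ± 0.13, limma adjusted p = 1.8e-08) and 2.16-fold higher in those of saline rats (1.78 to 2.62; 1.11 ± 0.13, limma adjusted p = 1.1e-07).

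Xrcc1, the scaffold that holds polymerase and ligase at the break, rose by a like amount. Its lowest, median and highest levels were 2.62, 2.84 and 3.15 in round spermatids of cyclophosphamide rats, against 1.35, 1.84, 1.48, 1.55 and 1.89 in pachytene spermatocytes. In saline rats they were 2.45, 2.98 and 3.24 in round spermatids, against 1.72, 2.19, 1.96, 1.89 and 1.57 in pachytene spermatocytes. No array of one cell type reached the range of the other. The rise in round spermatids was 2.35-fold in cyclophosphamide rats (1.91 to 2.90; 1.23 ± 0.15, limma adjusted p = 6.8e-08) and 2.10-fold in saline rats (1.70 to 2.59; 1.07 ± 0.15, limma adjusted p = 6.9e-07).

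Polb, the gap-filling polymerase, rose least. Its lowest, median and highest levels were 1.44, 1.60 and 1.83 in round spermatids of cyclophosphamide rats, against 1.85, 0.92, 0.96, 1.13 and 1.08 in pachytene spermatocytes. In saline rats they were 1.52, 1.68 and 1.88 in round spermatids, against 0.93, 0.68, 0.82, 1.42 and 1.03 in pachytene spermatocytes. The groups were apart in saline rats, and cyclophosphamide pachytene rat 7 reached above the round spermatids of its treatment. On that array the 2 spots of the probe differed by 0.87 on the log2 scale, the widest gap for Polb on any array. Polb was 1.32-fold higher in round spermatids of cyclophosphamide rats (1.06 to 1.64; 0.40 ± 0.15, limma adjusted p = 0.0207) and 1.63-fold higher in those of saline rats (1.31 to 2.03; 0.71 ± 0.15, limma adjusted p = 2.3e-04). The call in cyclophosphamide rats did not hold under quantile normalization (0.27, limma adjusted p = 0.0981).

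**Figure D2:**
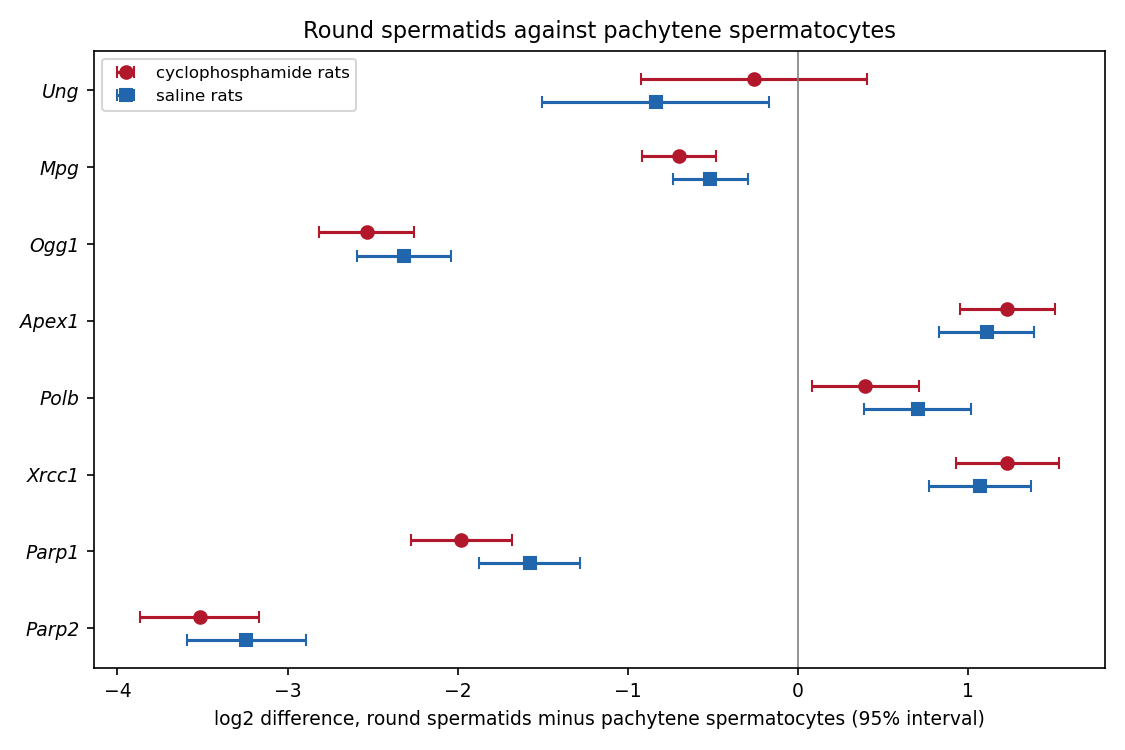
Log2 difference, round spermatids minus pachytene spermatocytes (horizontal axis), with 95% intervals from limma, in cyclophosphamide rats (circles, n = 6 and 5) and saline rats (squares, n = 6 and 5). Intervals for Parp1, Parp2, Ogg1 and Mpg lie left of 0 and those of Apex1, Xrcc1 and Polb right of 0 in both treatments; the Ung interval spans 0 in cyclophosphamide rats.

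Of the 8 tested members, 6 did not overlap between the cell types in cyclophosphamide rats and 7 in saline rats, beside 66.9% and 57.0% of all tested genes. The order of the group means had both round spermatid groups at one end for 7 members. The 2 neighbours within a cell type, cyclophosphamide and saline, overlapped for every member. For 6 of the 7 only the step between cell types was free of overlap, and for Polb cyclophosphamide rat 7 bridged it. Ung had another order, with the saline pachytene mean (-2.66) highest, then saline round spermatids (-3.50), cyclophosphamide pachytene spermatocytes (-3.85) and cyclophosphamide round spermatids (-4.11), and no step in that order was free of overlap.

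The arrays lay on 4 slides, and slides 1 and 2 held all 4 groups, each with 3 round spermatid arrays and 1 pachytene array per treatment. Slides 3 and 4 held pachytene arrays only and were scanned on another day than slides 1 and 2. Over all arrays, cell type thus cannot be fully told apart from slide and scan day. Within slide 1 the log2 differences of Parp2 were -3.39 in cyclophosphamide rats and -2.95 in saline rats, those of Parp1 -1.91 and -1.54, and those of Ogg1 -2.48 and -2.14. Within slide 2 the same genes gave -3.43 and -3.34, -1.90 and -1.67, and -2.31 and -2.29, in the same order. For Apex1 the slides gave 1.06 and 0.88 in cyclophosphamide rats and 0.97 and 1.13 in saline rats. The directions were kept on both slides.

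Markers of other cells moved with cell type too. Of 7 Sertoli markers on the array 6 were lower in round spermatids of cyclophosphamide rats and 5 in those of saline rats, while Wt1 was higher in both (log2 differences 1.20 and 1.12, in the same order). Their summed level was 1.89 to 4.195 in round spermatids of cyclophosphamide rats, against 18.2 to 31.7 in their pachytene spermatocytes, and 2.02 to 6.14 in round spermatids of saline rats, against 19.2 to 28.8 in pachytene spermatocytes. All 7 macrophage markers tested were higher in round spermatids, with summed levels of 5.20 to 9.002 in round spermatids of cyclophosphamide rats, against 0.495 to 1.18 in pachytene spermatocytes. In saline rats these sums were 3.79 to 11.51 in round spermatids, against 0.844 to 1.26 in pachytene spermatocytes. All 5 Leydig markers tested were lower in round spermatids in both treatments, with sums of 1.72 to 3.02 in round spermatids of cyclophosphamide rats, against 5.18 to 9.83 in pachytene spermatocytes. All 4 peritubular myoid markers tested were higher in both treatments, with sums of 3.21 to 5.79 in round spermatids of cyclophosphamide rats, against 1.101 to 1.80 in pachytene spermatocytes. Of 5 spermatogonial markers 4 were higher in both treatments, and their sum was 9.83 to 14.1 in round spermatids of cyclophosphamide rats, against 4.59 to 8.23 in pachytene spermatocytes. In saline rats the sums in round spermatids were 1.82 to 4.196 for Leydig, 3.47 to 5.61 for myoid and 10.2 to 13.8 for spermatogonial markers, against 5.69 to 11.4, 1.37 to 2.196 and 5.46 to 7.71 in pachytene spermatocytes. Of 4 endothelial markers tested 1 was higher and 2 lower in cyclophosphamide rats, and 2 were lower in saline rats. Of 3 red blood cell markers 1 was lower in both treatments. The part of these cells in the repair gene differences was not tested.

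A wider list of 40 genes of base excision repair and ADP-ribosylation was described by counts. It had 32 genes on the array and 28 tested between the cell types. In cyclophosphamide rats 7 were higher in round spermatids and 13 lower, and in saline rats 8 were higher and 11 lower, with medians of -0.24 and -0.32. That is 71.4% of the tested list in cyclophosphamide rats, beside 79.2% of all tested genes, and 67.9% in saline rats, beside 75.2%. Among the 3 largest rises in both treatments was Aptx, a remover of the blocked ends left by failed ligation, at 5.20-fold higher in round spermatids of cyclophosphamide rats and 3.75-fold higher in those of saline rats. Tdp1, which frees topoisomerase from DNA, was also among them, at 2.64-fold higher in round spermatids of cyclophosphamide rats and 2.17-fold higher in those of saline rats.

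Among the 3 largest falls in both treatments was Parg, the hydrolase that takes poly(ADP-ribose) chains apart. It was 6.40-fold lower in round spermatids of cyclophosphamide rats and 6.55-fold lower in those of saline rats, where its probe was well above background on 2 of 6 and 3 of 6 arrays. Nthl1, a glycosylase for oxidised pyrimidines, was also among them, and was 3.30-fold lower in cyclophosphamide rats and 2.84-fold lower in saline rats. Tdg, which removes thymine or uracil opposite guanine, was another of the 3 in cyclophosphamide rats, 3.43-fold lower in round spermatids of cyclophosphamide rats. Nudt1, which clears oxidised nucleotides from the precursor pool, was another in saline rats, 2.58-fold lower in round spermatids of saline rats.

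**Figure D3:**
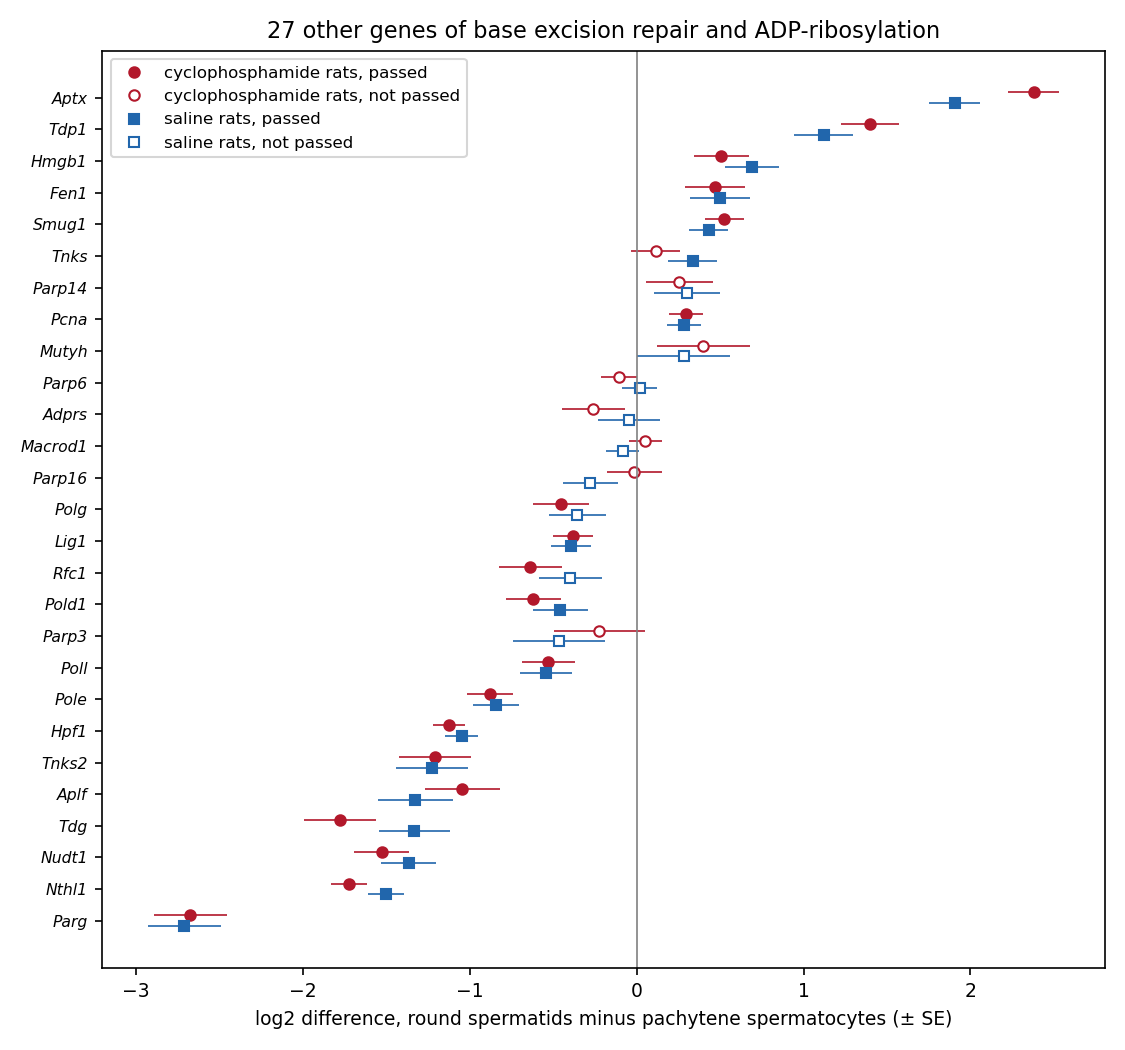
Log2 difference, round spermatids minus pachytene spermatocytes (horizontal axis, ± SE), for 27 of the 28 tested genes of the wider list, sorted by the value in saline rats (squares), with cyclophosphamide rats as circles. Filled symbols passed at a limma adjusted p of 0.05; Aptx and Tdp1 stand at the top and Parg at the bottom.

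The genes most like Parp2, with the largest fall, and Apex1, with the largest rise in saline rats, were found by the root mean square distance of centred log2 levels over all 22 arrays. For Parp2 these were Cdc20 (distance 0.17), Cstf2t (0.18) and Dnaaf4 (0.19). For Apex1 they were Syce3 (0.12), Ergic3 (0.13) and Jam3 (0.13). Among the members, Apex1 and Xrcc1 were nearest to each other (0.19), and the nearest member to both Parp1 and Parp2 was Ogg1 (0.37 and 0.50).

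The second comparison asked what 4 weeks of cyclophosphamide did to these genes within each cell type. No member passed in either cell type, and neither did any other gene: 0 of 18450 tested genes passed in pachytene spermatocytes and 0 of 18843 in round spermatids (0% in limma). At an unadjusted p under 0.05 there were 7.21% of genes in pachytene spermatocytes and 3.33% in round spermatids. The groups of all 8 members overlapped in both cell types, as did those of all but 0.629% of tested genes in pachytene spermatocytes and 0.191% in round spermatids. Of the 8 members, 1 had an unadjusted p under 0.05 in each cell type, Ung in pachytene spermatocytes and Parp1 in round spermatids.

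**Figure D4:**
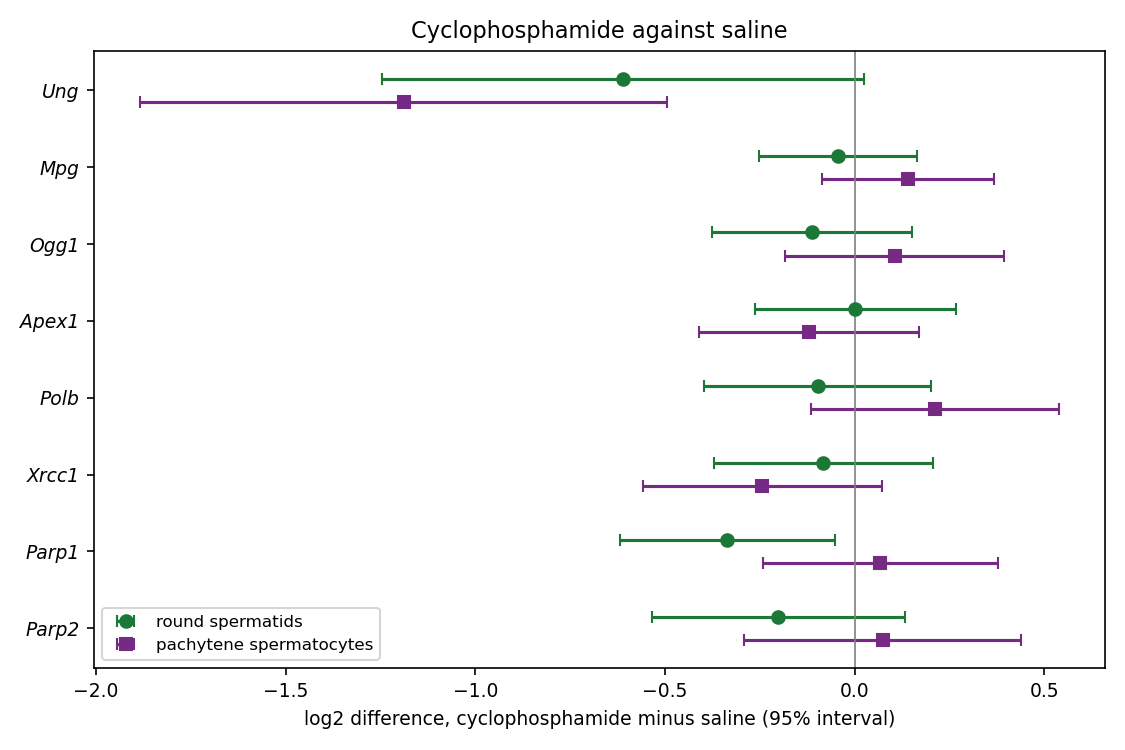
Log2 difference, cyclophosphamide minus saline (horizontal axis), with 95% intervals from limma, in round spermatids (circles, n = 6 and 6) and pachytene spermatocytes (squares, n = 5 and 5). Ung lies farthest left in both cell types, and the intervals of Ung in pachytene spermatocytes and Parp1 in round spermatids do not reach 0; none passed after adjustment.

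In pachytene spermatocytes the Ung levels of cyclophosphamide rats 7, 15, 16-2011, 16-2012 and 29 were -4.19, -3.53, -3.81, -4.23 and -3.50. Those of saline rats 13, 16, 25, 26 and 28 were -2.82, -2.46, -2.03, -4.17 and -1.82. Each of the 5 cyclophosphamide arrays was under the saline mean, and saline rat 26 alone made the groups overlap. Ung was 2.28-fold lower after cyclophosphamide (95% interval 1.41 to 3.69; log2 difference -1.19 ± 0.33), which did not pass (limma adjusted p = 0.685). A two-sided exact permutation test on this gene alone, chosen after its values were seen, gave p = 0.0317, where the smallest p possible is 0.00794. Its unadjusted limma p was smaller than those of all but 0.125% of tested genes. Without saline rat 26 the difference was -1.57 ± 0.27, at a limma adjusted p of 0.0504, and without that array and cyclophosphamide rat 16-2012 it was -1.47, at a limma adjusted p of 0.178. Ung was a dim probe, with processed signals from 61.4 to 412.5 intensity units, and its 2 spots differed by at most 0.29 on the log2 scale on any array.

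The Ung difference in pachytene spermatocytes had the same direction on each slide. It was -0.71 on slide 1, -1.47 on slide 2, -2.18 on slide 3 and -0.91 on slide 4, each from 2 or 3 arrays of that cell type, of which at least 1 treatment had a single array. In round spermatids the lowest, median and highest Ung levels were -4.66, -3.99 and -3.82 after cyclophosphamide, against -4.23, -3.46 and -2.80 after saline. Each of the 6 cyclophosphamide arrays was under the saline mean, yet the groups overlapped. The difference there was -0.61 ± 0.31 (limma adjusted p = 0.999986; two-sided exact permutation p = 0.0476), with -0.51 within slide 1 and -0.71 within slide 2. The difference between the cell types in this effect was 0.58 ± 0.46 (limma adjusted p = 0.701).

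**Figure D5:**
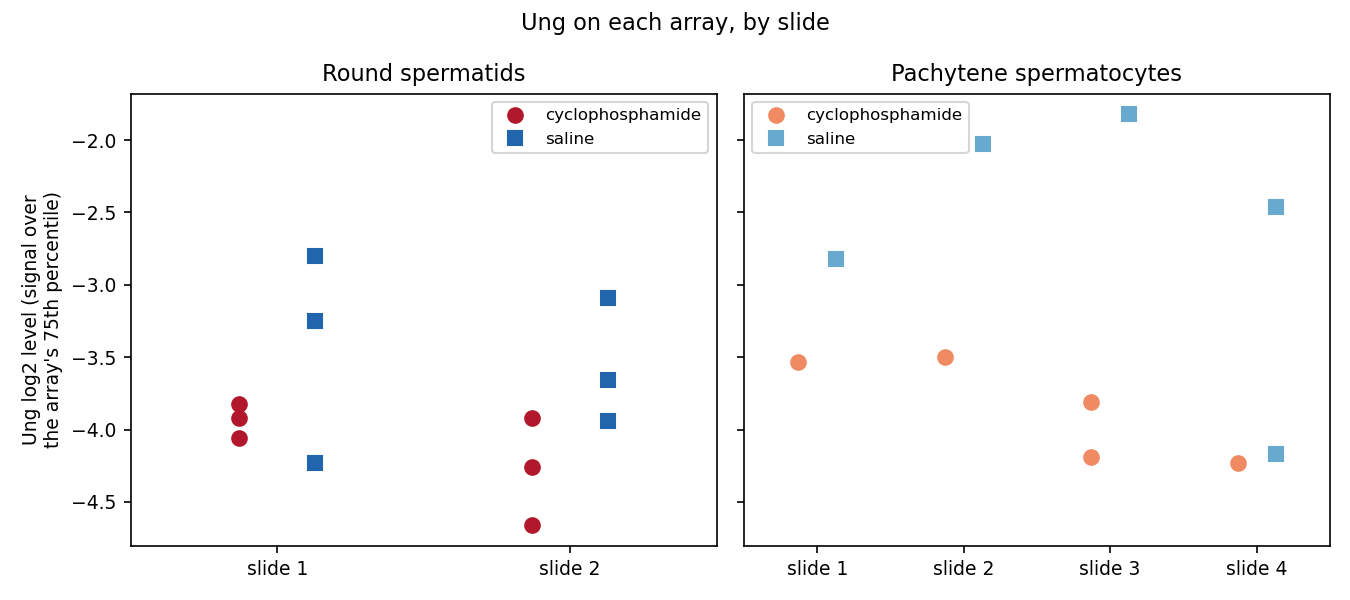
Ung log2 level on each array (vertical axis) by slide, in round spermatids (left panel) and pachytene spermatocytes (right panel), after cyclophosphamide (circles) or saline (squares). Saline rat 26, at -4.17 on slide 4, lies within the range of the cyclophosphamide pachytene arrays, and the other saline pachytene arrays lie above it.

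Markers of several cell types were lower after cyclophosphamide in the pachytene fractions, with none passing. Pachytene markers went the other way, with 9 of 10 above 0 and 1 below. Their median was 0.12, beside 0.03 for all tested genes, and none had an unadjusted limma p under 0.05. All 12 round spermatid markers were lower after cyclophosphamide, with a median of -0.53, 8 at an unadjusted limma p under 0.05 and 0 passing. Their summed level was 155 to 325 in cyclophosphamide pachytene spermatocytes, against 166 to 420 in saline ones, and all 12 were well above background on every array. All 7 macrophage markers tested were lower too, with a median of -0.18 and 2 at an unadjusted limma p under 0.05, and their summed level was 0.495 to 1.18 after cyclophosphamide, against 0.844 to 1.26 after saline. All 4 peritubular myoid markers tested were lower (median -0.25, none at an unadjusted limma p under 0.05), with sums of 1.101 to 1.80 after cyclophosphamide, against 1.37 to 2.196 after saline. All 4 endothelial markers tested were lower (median -0.08, 1 at an unadjusted limma p under 0.05), with sums of 0.349 to 0.445 after cyclophosphamide, against 0.290 to 0.622 after saline. Of 7 Sertoli markers 3, of 5 Leydig markers 4, of 4 spermatogonial markers 2 and of 3 red blood cell markers 0 were below 0, none at an unadjusted limma p under 0.05. The part of these cells in the Ung difference was not tested.

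For Parp1 in round spermatids the lowest, median and highest levels were 1.25, 1.42 and 1.84 after cyclophosphamide, against 1.40, 1.83 and 2.16 after saline. The groups overlapped, with 5 of 6 cyclophosphamide arrays under the mean of saline rats. Parp1 differed by -0.34 ± 0.14 there (limma adjusted p = 0.999986; two-sided exact permutation p = 0.0519), with -0.56 within slide 1 and -0.11 within slide 2. Exact tests were run on 3 pairs of gene and cell type, Ung in both and Parp1 in round spermatids, all chosen after their values were seen. In pachytene spermatocytes its difference was 0.07 ± 0.15 (limma adjusted p = 0.930), and the difference between these effects was -0.40 ± 0.20 (limma adjusted p = 0.636).

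The other members differed less. Leaving out Ung, the 7 differences in pachytene spermatocytes lay between -0.24 (Xrcc1) and 0.21 (Polb), and no 95% interval reached beyond -0.56 or 0.54. In round spermatids they lay between -0.34 (Parp1) and 0.00 (Apex1), with bounds of -0.62 and 0.27. Mpg, which acts on alkylated bases, differed by 0.14 (interval -0.09 to 0.37) in pachytene spermatocytes and by -0.04 (-0.25 to 0.16) in round spermatids. The Polb value in pachytene spermatocytes was 0.05 without cyclophosphamide rat 7. Parp2 in round spermatids differed by -0.20, and by -0.37 without saline rat 29.

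In the wider list no gene passed after cyclophosphamide. The smallest unadjusted limma p-values in pachytene spermatocytes were those of Tnks, a poly(ADP-ribose) polymerase of telomeres (log2 difference 0.30, adjusted p = 0.685), and of Parp3 (-0.43, adjusted p = 0.764). In round spermatids they were those of Aptx (log2 difference 0.24) and Pold1, the catalytic subunit of DNA polymerase delta (log2 difference -0.26). Both had an adjusted limma p of 0.999986.

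The third comparison set the cyclophosphamide effect in round spermatids against that in pachytene spermatocytes. Of 19643 genes 1 passed (0.00509%), a feature without a symbol here, and none of the 8 members did. At an unadjusted limma p under 0.05 there were 7.62% of all genes and 0 of the 8 members. The median member difference was -0.20, and the largest in size was that of Ung. In the wider list Aptx had the smallest unadjusted limma p (0.47, limma adjusted p = 0.636), and Tdg the next (-0.45, limma adjusted p = 0.670).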

How the data were processed

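Per the labels' protocols, RNA was extracted with TRIzol, cleaned on RNeasy columns and labelled with Cy3. The deposited scanner files give background-subtracted, trend-corrected processed signals as intensity per spot. The submitters' processing notes name Agilent Feature Extraction 11.5.1.1, and the file headers 10.7.3.1. A value table from the authors has 30507 probes in log2 units and matched quantile-normalized signals centred on each probe's median within a cell type. Over the 15165 brighter probes the lowest correlation of a column with its own array was 0.9988. Column medians of the value table were -0.01 to 0.01, and the authors' exact steps stay unknown. It served as an alternative for the drug comparisons.

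Control spots and outlier spots were left out, spots of a probe were averaged, and log2 signals were scaled to each array's 75th percentile. Of 30367 probes, 17998 (59.3%) were named through RefSeq accessions (GRCr8). The probe with the highest mean stood for a gene. A gene was tested where more than 0.5 of its spots were well above background in 1 of the groups compared, with 1 array of that group allowed to miss this. Contrasts of 4 group means over 22 arrays were fitted with limma 3.58.1 in R 4.3.3 (lmFit, eBayes), with Benjamini-Hochberg adjustment over all genes tested. The fit was tested on simulated data of 26875 genes, without the filter on dim probes, with 200 changed by 1 on the log2 scale. Of these, 65.5% were recovered in the pachytene drug comparison, 61.5% in the round spermatid one and 31% in the difference of effects. Between cell types 65% were recovered in cyclophosphamide rats and 59% in saline rats. Apart from the 200 changes, each simulated gene had the same mean in all groups, with independent noise and no slide or fraction effects. The rates between cell types thus do not carry over to the measured data, where most tested genes passed. Python 3.11.15, numpy 2.4.6, pandas 2.3.3 and matplotlib 3.10.9 made tables and figures, and statmod 1.5.0 the block correlation. Values after ± are standard errors.

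Named genes were all members and, in the wider list, the 3 largest differences in each direction that passed between cell types or the 2 smallest p-values after treatment; 1 gene under this rule is not reported here. Members and lists were chosen with earlier results of these data known. Each array was taken as a different rat, the cyclophosphamide arrays 16-2011 and 16-2012 included, and the number of arrays limits the precision. Where arrays share an animal, p-values are affected. Normexp used the median foreground signal with an offset of 50.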

Additional observations from a re-analysis of the deposited data

Results flagged for a closer look

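Within each group of 5 or 6 arrays, the lowest and highest level of each of 9 genes was set against the others (36 groups). A gap to the nearest array that is large beside the group's range occurred 4 times, and chance flags about 1 in 20 groups. Polb in cyclophosphamide pachytene spermatocytes was highest on rat 7, with a gap of 0.771 of the range (1.85 against 1.13 for the next). Parp2 was highest on rat 16-2012 among cyclophosphamide pachytene arrays (0.834 of the range; 1.66 against 1.26) and on rat 26 among saline pachytene arrays (0.788; 1.63 against 1.19). Parp2 was lowest on rat 29 among saline round spermatid arrays (0.662; -2.87 against -2.02).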

How the results depend on the processing

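For single genes, 944 values were recomputed under the alternatives, of which 908 kept their direction and their side of the threshold, 13 kept the direction but lost the call and 23 changed sign, every such change in a drug comparison where no member passed. Members passing between cell types numbered 6 or 7 in cyclophosphamide rats and 6 to 8 in saline rats.

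Counts over all genes moved as follows. In pachytene spermatocytes 1 gene passed without the filter on dim probes, and 7, 34, 14 and 28 passed within slides 1, 2, 3 and 4, which hold 1 pachytene array per treatment (slides 1 and 2) or 1 in one treatment and 2 in the other, so that a lone array was assumed to vary like the other groups on its slide. In round spermatids 1 and 4 passed within slides 1 and 2. The difference of effects had 0 genes with normexp background correction, 0 within slide 1, 21 within slide 2, and 0 without saline pachytene rat 26 and cyclophosphamide pachytene rat 16-2012, an alternative chosen after seeing the data. No member passed in any of these.

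Signs changed in pachytene spermatocytes within slide 1 for Ogg1 (-0.0229), Apex1 (0.10), Polb (-0.0079), Xrcc1 (0.12) and Parp1 (-0.19), within slide 2 for Apex1 (0.0704) and within slide 3 for Mpg (-0.0339). In round spermatids they changed within slide 2 for Mpg (0.0392), Ogg1 (0.13), Apex1 (-0.19), Xrcc1 (0.0359) and Parp2 (0.0046). For the difference of effects they changed for Xrcc1 within slide 1 (-0.32) and Apex1 within slide 2 (-0.26). Leaving out 1 array at a time gave -0.0232 to 0.15 for Parp1 and -0.0161 to 0.17 for Parp2 in pachytene spermatocytes, and -0.0777 to 0.0163 for Mpg and -0.0457 to 0.0629 for Apex1 in round spermatids. The causes were not tested. Quantile normalization put the median difference of all genes between cell types of saline rats at -0.09, against 0.01 in the main scaling, and no member changed direction between cell types under any alternative.

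Calls between cell types were lost for Ung in saline rats without pachytene rats 25 or 28 or round spermatid rats 15 or 29 (adjusted p of 0.0760, 0.0887, 0.0622 and 0.0523 in limma), with the 2 groups fitted alone (0.0680) and within slide 1 (0.322). Polb in cyclophosphamide rats lost its call without pachytene rats 15 or 16-2011 (0.0655 and 0.0608) and within slide 2 (0.0627). Mpg lost it in saline rats within slides 1 and 2 (0.111 and 0.0676), where its differences were -0.50 and -0.48 against -0.51 over all arrays, and Xrcc1 within slide 2 (0.0507; 0.83 against 1.07), each against 1 pachytene array.

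With a replicate block on rat number, 0 genes passed in either drug comparison, 1 in the difference, 15311 between cell types in cyclophosphamide rats and 14615 in saline rats, and no member's call changed. Deviations of same-numbered arrays correlated at -0.04 to 0.21, beside -0.19 to 0.17 for 54 other pairs. Such correlations between different cell types cannot show whether equal numbers name the same rat. The numbers were not taken to pair arrays.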
